A study of Homo sapiens with 12 samples.

Results

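Chromosome 13 carried 6138 of the 262931 chromatin regions and FOXA2 peaks called in SW620 and SW480, human colorectal adenocarcinoma cell lines. Its members were chosen by the chromosome column of the authors' called lists: every row on chromosome 13 was taken, 3238 in SW620 and 2900 in SW480. The calls themselves were thus the values that chose the members, and the number of regions is given as a description. Both lines were untreated and were grown in DMEM. SW620 is labelled Dukes' type C and SW480 Dukes' type B. In each line, sequencing of immunoprecipitated chromatin (ChIP-seq) was done with antibodies to 4 histone marks, H3K4me2, H3K4me3, H3K27ac and H3K36me3, and to the transcription factor FOXA2, with an input library beside them. Each line had 1 library per antibody, so no difference between the lines has a replicate check, they could not be tested and no p-value appears. Intervals are 95% Wilson intervals unless stated, cover counting error only, and treat neighbouring regions as independent, which they are not.

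H3K4me3 sits on promoters, H3K4me2 on promoters and enhancers, and H3K27ac on promoters and enhancers that are active. H3K36me3 is laid down along the bodies of transcribed genes, and FOXA2, a forkhead protein needed for the foregut and the liver, binds enhancers. Chromosome 13 is acrocentric, with its genes on the long arm. Gain of that arm is frequent in colorectal carcinoma, and the arm carries CDX2, a homeobox factor of the intestinal epithelium, and KLF5, a zinc-finger factor of intestinal crypts. Copy number was not measured here: the lists give positions, and the input libraries were not used beyond the authors' calling. A part of copy number in any of the values that follow was not tested. No gene annotation of the files' build, hg19, was at hand, so regions are named by hg19 position, counted from 1, no gene was assigned to a region, and the lines were not checked against marker genes.

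The called libraries held between 12791745 and 47867295 tags. The share of tags inside regions differed between the lines most for H3K27ac, at 27.5% in SW620 and 58.5% in SW480, for H3K4me3, at 52.0% in SW620 and 73.0% in SW480, and for FOXA2, at 2.25% in SW620 and 0.590% in SW480. These values describe whole libraries and were not measured by chromosome. Shares on chromosome 13 are set against those on the other 21 autosomes of the same list, while single regions and bin contents are described alone. Whether the library differences bear alike on every chromosome was not tested. Whether tag share or depth affected the calls was not tested.

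Regions on chromosome 13 lay between positions 19284411 and 115106889, a span of 95.8 Mb. Called regions were sparse, at 64.1 per Mb over all 10 lists, against a median of 90.6 per Mb on the other autosomes (range 47.4 to 220). Only chromosomes 4 and 18 were sparser. The RefSeq gene table places 338 protein-coding genes on chromosome 13, the 3rd lowest number of the 22 autosomes. Set against that number, H3K4me3 regions were many, though none was assigned to a gene. H3K4me3 regions numbered 1.01 per protein-coding gene in SW620 and 1.10 in SW480, the highest ratio of the 22 autosomes in each line, where the medians of the others were 0.851 in SW620 and 0.932 in SW480.

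The size of each list on chromosome 13 differed between the lines by antibody. H3K4me2 had 828 regions covering 1.82 Mb in SW620 and 644 regions covering 1.59 Mb in SW480. H3K27ac had 510 regions covering 1.21 Mb in SW620 and 432 regions covering 1.20 Mb in SW480. Acetylated regions were thus more numerous in SW620 but narrower, with a median width of 2067 bp in SW620 against 2545 bp in SW480, and the covered length was nearly equal. H3K4me3 had 341 regions covering 0.734 Mb in SW620 and 372 regions covering 0.864 Mb in SW480. H3K36me3 had 1154 regions covering 2.73 Mb in SW620 and 1303 regions covering 3.10 Mb in SW480. For both of these marks SW480 had the longer list. FOXA2 had 405 peaks in SW620 and 149 in SW480, and since all SW620 peaks are 319 bp wide and all SW480 peaks 127 bp, their covered length only restates the number.

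Chromosome 13 took a larger part of the H3K27ac and H3K4me2 lists in SW620 than in SW480. For H3K27ac it held 2.36% of the autosomal regions in SW620 and 1.89% in SW480, a ratio of 1.24 (1.09 to 1.42, from an exact binomial interval of the SW620 part of the regions of both lines). The same ratio on the other 21 autosomes lay between 0.888 and 1.07, so that chromosome 13 stood above all of them. For H3K4me2 the shares were 2.43% in SW620 and 2.09% in SW480, a ratio of 1.16 (1.05 to 1.29), again the highest of 22 autosomes, with chromosome 3 next at 1.12. When covered length replaced the number of regions, the H3K27ac ratio was 1.16 and still ranked 1st, while the H3K4me2 ratio was 1.07 and ranked 3rd. The other antibodies showed no such position. The ratio was 1.03 for H3K4me3 (0.884 to 1.19), 1.03 for H3K36me3 (0.949 to 1.11) and 1.11 for FOXA2 (0.914 to 1.34), and these intervals include 1.

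**Figure D1:**
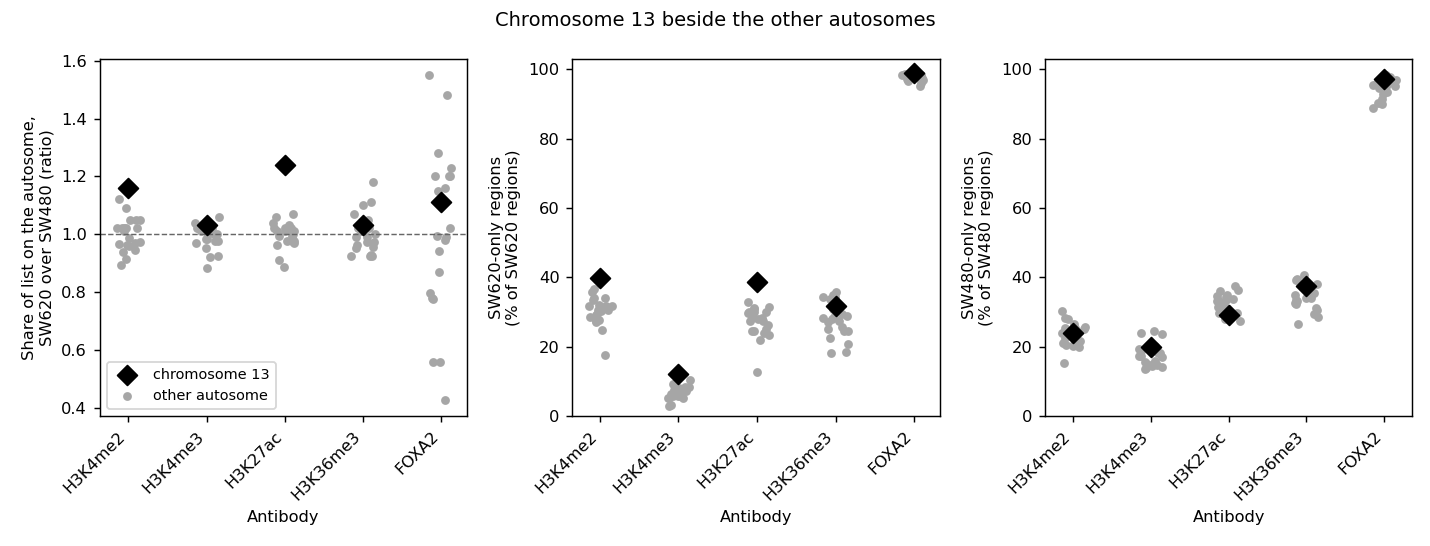
Each panel plots 1 quantity per antibody for chromosome 13 (black diamonds) and the other 21 autosomes (grey points, spread sideways for legibility): the ratio of the chromosome's share of the SW620 list to its share of the SW480 list, the SW620-only regions in percent of the SW620 regions, and the SW480-only regions in percent of the SW480 regions. Chromosome 13 lies above every other autosome for H3K27ac and H3K4me2 in the first 2 panels, at 1.24 and 1.16 and at 38.8% and 39.9%, and lies within the other autosomes for all antibodies in the last panel.

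Regions were then divided into shared regions, which have 1 bp or more in common with a region of the same antibody in the other line, and line-only regions, which do not. A line-only region can lie just under the calling threshold in the other line, so the word describes the lists. On chromosome 13, 330 of 828 SW620 H3K4me2 regions were SW620-only, 39.9% (36.6 to 43.2), against 30.0% on the other autosomes combined. Of the 644 SW480 H3K4me2 regions 153 were SW480-only, 23.8% (20.6 to 27.2), against 23.1% elsewhere. The raised share was thus seen in the SW620 list, and the SW480 list matched its background. H3K27ac gave 198 SW620-only regions of 510, 38.8% (34.7 to 43.1), against 26.6% elsewhere. It gave 126 SW480-only regions of 432, 29.2% (25.1 to 33.6), against 31.9% elsewhere. Both SW620 shares were the highest of the 22 autosomes, where the others ranged from 17.5% to 36.5% for H3K4me2 and from 12.8% to 32.9% for H3K27ac.

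H3K4me3, the promoter mark, had more line-only regions in SW480 than in SW620, and both shares stood above those elsewhere. It had 41 SW620-only regions of 341, 12.0% (8.99 to 15.9), against 6.72% elsewhere, the highest share of the 22 autosomes. There were 74 SW480-only regions of 372, 19.9% (16.2 to 24.2), against 16.9% elsewhere, a value inside the interval. H3K36me3 also stood above its background in both lines. It had 367 SW620-only regions of 1154, 31.8% (29.2 to 34.5), against 27.8% elsewhere, and 487 SW480-only regions of 1303, 37.4% (34.8 to 40.0), against 34.3% elsewhere. The SW620 share ranked 6th and the SW480 share 5th of the 22 autosomes. FOXA2 peaks were nearly all line-only on every autosome: 401 of 405 in SW620, 99.0% (97.5 to 99.6), against 98.0% elsewhere, and 145 of 149 in SW480, 97.3% (93.3 to 99.0), against 95.2% elsewhere.

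The balance of line-only regions was summarised as an excess, which is the log2 of SW620-only over SW480-only regions, with 1 added to both, less the same quantity over the other 21 autosomes. An excess of 0 means the balance found elsewhere, and a positive one means relatively more SW620-only regions. H3K27ac had an excess of 1.00 (0.68 to 1.32, from a Wilson interval of the SW620-only part of the line-only regions), the highest of the 22 autosomes, with chromosome 3 next at 0.37. H3K4me2 had an excess of 0.58 (0.31 to 0.86), also the highest, but with chromosome 3 close behind at 0.56. H3K4me3 had 0.66 (0.11 to 1.21), second to chromosome 3 at 0.82, and with lists cut to equal length its excess was 0.30 and ranked 8th. H3K36me3 at 0.11 (-0.08 to 0.31) and FOXA2 at 0.13 (-0.15 to 0.40) both ranked 10th. H3K27ac was therefore the antibody for which chromosome 13 stood clear of the other autosomes, and none of the single bins decided it: with each 5 Mb bin left out in turn the excess lay between 0.86 and 1.21.

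Line-only regions were narrower than shared ones. SW620-only H3K27ac regions had a median width of 1527 bp and shared ones 2357 bp in the SW620 list. SW480-only H3K27ac regions had a median width of 1884 bp and shared ones 2761 bp in the SW480 list. The same held for H3K4me2, at 1257 bp for SW620-only and 2434 bp for shared regions in SW620, and at 1255 bp for SW480-only and 2533 bp for shared regions in SW480. The other autosomes showed the same order, with H3K27ac medians of 1517 bp for SW620-only and 2381 bp for shared regions in SW620, and of 1763 bp for SW480-only and 2653 bp for shared regions in SW480. The shared regions were not wider in SW620. Over the pairs that overlapped 1 to 1, the median log2 ratio of the SW620 width to the SW480 width was -0.03 for H3K4me2 (449 pairs), -0.15 for H3K4me3 (294 pairs), -0.16 for H3K27ac (296 pairs) and -0.02 for H3K36me3 (418 pairs), each within the range of the other autosomes. Measured by length, the sequence covered in both lines was 41.9% of all H3K27ac-covered sequence on chromosome 13, against 47.7% on the other autosomes, and 46.8% for H3K4me2, against 51.9%. Both were the lowest of the 22 autosomes. The share covered in both lines was also below that of the other autosomes for H3K4me3, at 62.4% against 67.2%, and for H3K36me3 and FOXA2. It ranked 3rd lowest for H3K4me3 and 2nd lowest for H3K36me3 and for FOXA2. The low share was thus not particular to H3K27ac and H3K4me2. By this measure SW620-only and SW480-only acetylated sequence were nearly equal on chromosome 13, at 0.490 Mb or 29.2% SW620-only and 0.483 Mb or 28.8% SW480-only, where the other autosomes had 20.7% SW620-only and 31.6% SW480-only.

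Regions with H3K4me3 of the same line, as at promoters, and regions without it, as at enhancers, were described separately. Of the SW620 H3K27ac regions on chromosome 13, 48.2% lay outside H3K4me3, against 40.1% on the other autosomes. Of the SW480 H3K27ac regions 32.4% did, against 33.1%. Acetylation outside called H3K4me3 of SW620 thus made up more of the SW620 list here than elsewhere. No promoter annotation was used, so the classes rest on H3K4me3 calls alone. In the class without H3K4me3, 170 of 246 SW620 regions were SW620-only, 69.1% (63.1 to 74.5), against 59.3% elsewhere. In SW480 it was 74 of 140 regions, 52.9% (44.6 to 60.9), against 58.7%. In the class with H3K4me3, 28 of 264 SW620 regions were SW620-only, 10.6% (7.44 to 14.9), against 4.61%, and 52 of 292 SW480 regions were SW480-only, 17.8% (13.8 to 22.6), against 18.7%. The raised SW620-only share was therefore present in both classes. It ranked 1st of the 22 autosomes with H3K4me3 but 2nd without it, the class that held most SW620-only regions. The part of class size in the pooled SW620-only share was not tested. H3K4me2 gave the same picture in SW620, with 61.0% (302 of 495) against 52.0% outside H3K4me3 and 8.41% (28 of 333) against 3.84% on it. In SW480 it gave 47.0% (132 of 281) against 47.1% outside H3K4me3, and 5.79% (21 of 363) against 4.21% on it.

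**Figure D2:**
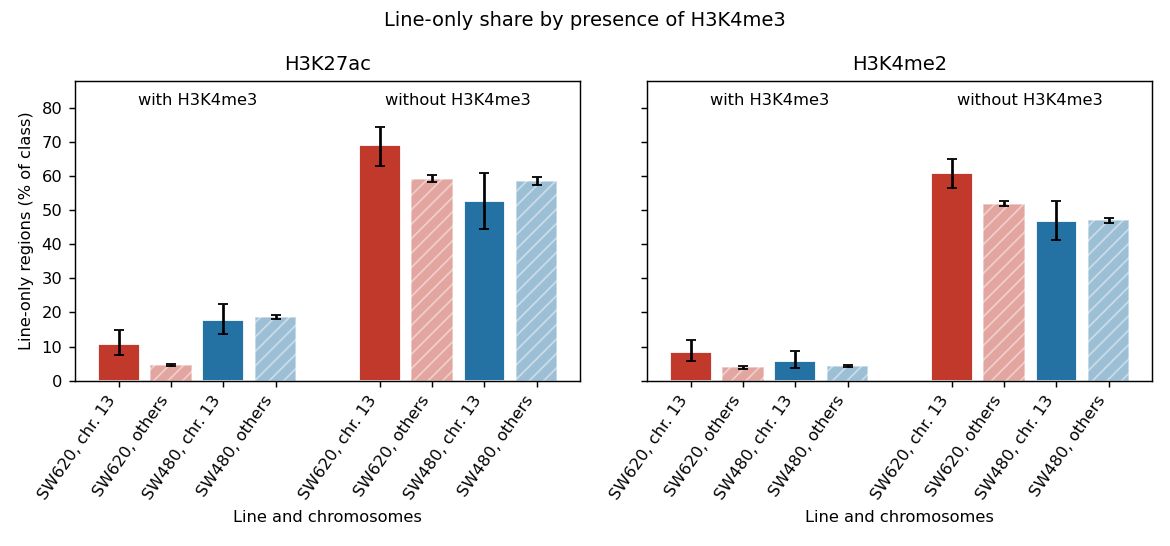
Bars give the line-only share of H3K27ac and H3K4me2 regions that overlap H3K4me3 of the same line or do not, in percent of the class, for chromosome 13 (solid) and the other 21 autosomes together (hatched). SW620 is red and SW480 blue, and error bars are 95% Wilson intervals. The SW620 bars of chromosome 13 lie above those of the other autosomes in all 4 classes, at 10.6% against 4.61% and 69.1% against 59.3% for H3K27ac.

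The line-only acetylated regions differed in the H3K4 methylation beneath them. Of the 198 SW620-only H3K27ac regions, 115 overlapped H3K4me2 of SW620 and none of SW480 (58.1%, against 57.1% elsewhere), 41 overlapped H3K4me2 of both lines (20.7%, against 17.3%), 2 of SW480 alone, and 40 of neither line (20.2%, against 24.8%). Of the 126 SW480-only H3K27ac regions, 35 overlapped H3K4me2 of SW480 and none of SW620 (27.8%, against 32.5%), 67 overlapped H3K4me2 of both lines (53.2%, against 50.2%), 4 of SW620 alone, and 20 of neither line (15.9%, against 15.4%). SW620-only acetylation thus lay mostly on sites whose H3K4me2 was also called in SW620 alone, and SW480-only acetylation mostly on sites with H3K4me2 in both lines. The other autosomes showed about the same contrast. Fewer SW620-only H3K27ac regions here had SW480 acetylation nearby: 28 of 198 lay within 5 kb of an SW480 H3K27ac region, 14.1%, against 23.2% elsewhere, and 22 of 126 SW480-only regions lay within 5 kb of an SW620 one, 17.5%, against 15.7%. Calls were also sparser on chromosome 13, and the part of density in these shares was not tested. SW620-only H3K27ac also lay less often in H3K36me3 of SW620, with 13 of 198 regions or 6.57%, against 17.3% elsewhere. Shared H3K27ac regions showed a gap of the same direction, 7.05% against 13.9% in the SW620 list.

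The line-only H3K4me3 regions mostly rested on H3K4me2 of their own line, on chromosome 13 as elsewhere. Of the 41 SW620-only ones, 37 overlapped SW620 H3K4me2 (90.2%, against 96.7% on the other autosomes) and 13 SW480 H3K4me2 (31.7%, against 43.6%). Of the same 41, 22 were acetylated in SW620 (53.7%, against 63.5%) and 5 in SW480 (12.2%, against 25.6%). Of the 74 SW480-only ones, 51 overlapped SW620 H3K4me2 (68.9%, against 73.5%) and 73 SW480 H3K4me2 (98.6%, against 96.7%). H3K4me2 of the other line thus lay under more of the SW480-only than of the SW620-only regions, in the same order as on the other autosomes. Of the 74, 16 were acetylated in SW620 (21.6%, against 15.5%) and 34 in SW480 (45.9%, against 52.2%).

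Along the chromosome, regions were counted in 5 Mb bins by their midpoint. No region was called in the first 15 Mb. The fullest bins were 110 to 115 Mb, with 394 SW620 and 420 SW480 regions, 20 to 25 Mb, with 369 SW620 and 313 SW480 regions, and 45 to 50 Mb, with 328 SW620 and 287 SW480 regions. The emptiest with any call were 15 to 20 Mb, with no SW620 and 5 SW480 regions, 55 to 60 Mb, with 16 SW620 and 5 SW480 regions, and 85 to 90 Mb, with 16 regions in each line. The first call lay at 19284411, so most of the 15 to 20 Mb bin precedes any call and it is not comparable with full bins. How much of the first 20 Mb can be mapped in the build was not examined, so its lack of calls is not a result about chromatin. Between 55 and 95 Mb, every bin apart from 70 to 75 and 75 to 80 Mb held at most 78 regions of both lines together, which left calls dense on either side of a poor middle. The longest stretch without a call in any of the 10 lists ran from 85805197 to 87638694, or 1.83 Mb. Without histone calls in either line, the longest ran from 67805650 to 71588412, or 3.78 Mb.

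**Figure D3:**
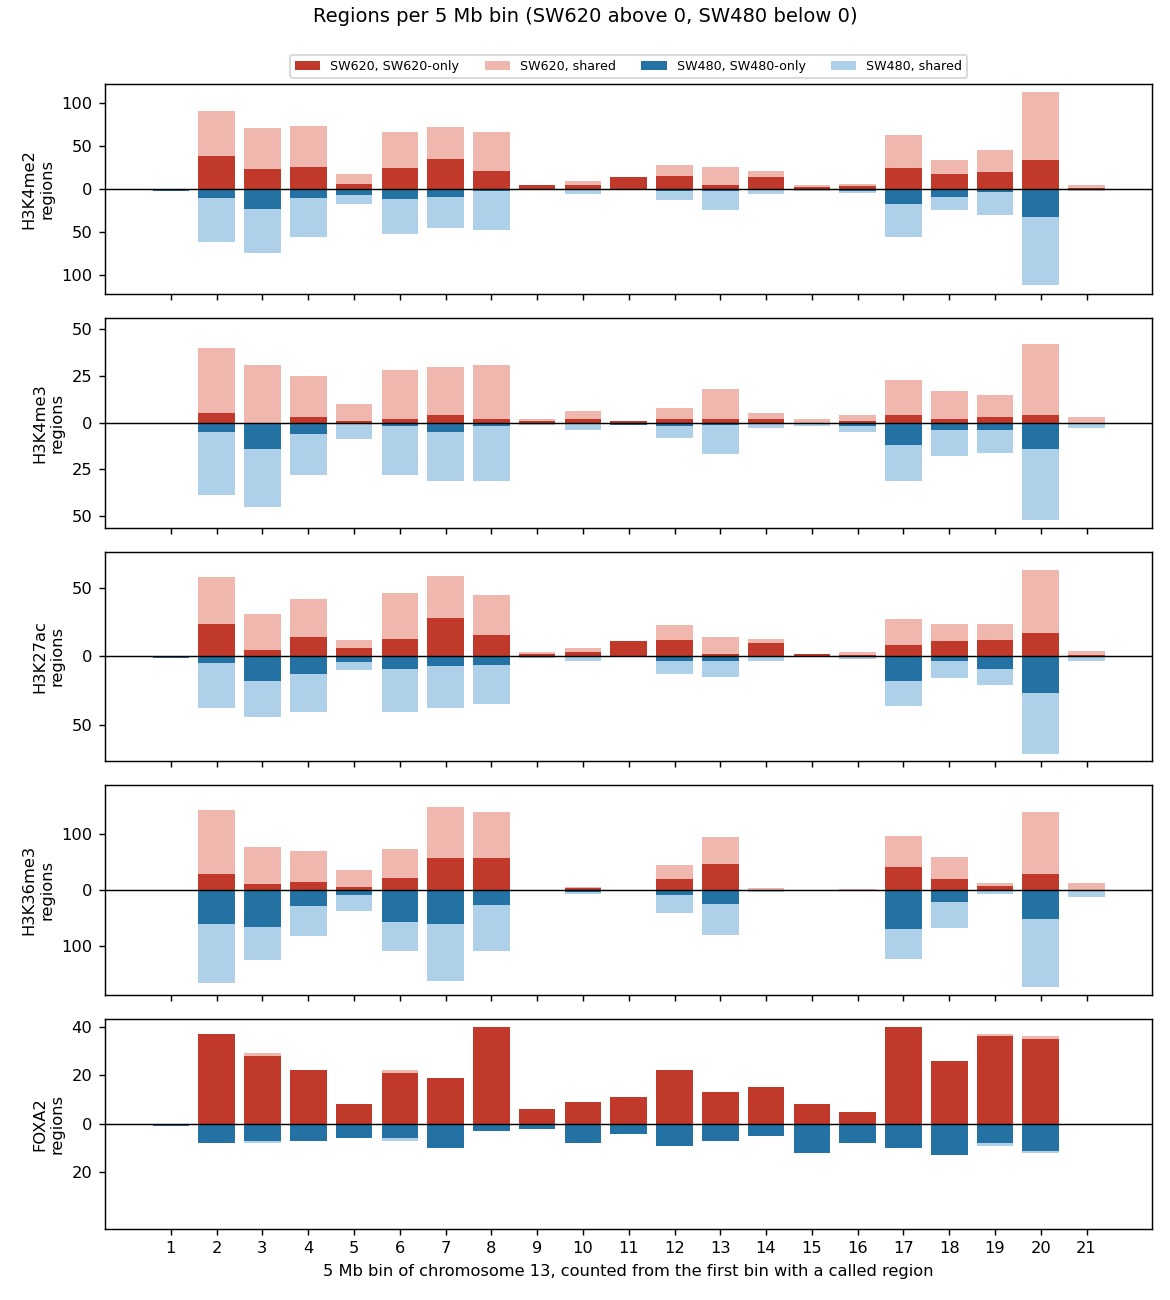
Each panel counts the regions of 1 antibody per 5 Mb bin of chromosome 13, with SW620 above 0 and SW480 below, and dark bars for line-only and light bars for shared regions. Bins are numbered from 1, which spans 15 to 20 Mb, to 21, which spans 115 to 120 Mb. SW620-only H3K27ac reaches 28 regions in bin 7, 45 to 50 Mb, against 7 SW480-only ones, and nearly all FOXA2 bars are dark.

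A bin was used for an antibody when the lines together had at least 10 line-only regions in it. H3K27ac had an SW620 excess in 11 of 14 used bins, against 46.8% of 410 used bins on the other autosomes, and the median excess was 1.23 against -0.11. In 6 of the 14 bins the excess was above the 90th percentile of the other autosomes, 1.81. H3K4me2 had an SW620 excess in 10 of 14 used bins, against 50.9% of 470, with a median of 0.89 against 0.01. The surplus of SW620-only acetylation and H3K4me2 was thus spread over most of the arm. H3K36me3 had an SW620 excess in 6 of 12 used bins, against 53.1% of 490, and FOXA2 in 9 of 18, against 43.2% of 514. For H3K4me3 only 4 bins could be used, 2 in each direction.

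The direction was not the same everywhere. H3K27ac showed an SW480 excess in 3 of its 14 used bins. The first was 25 to 30 Mb, with 5 SW620-only and 18 SW480-only regions. The others were 95 to 100 Mb, with 8 SW620-only and 18 SW480-only regions, and 110 to 115 Mb, with 17 SW620-only and 27 SW480-only regions. The opposite held in 20 to 25 Mb, with 24 SW620-only and 5 SW480-only regions, and in 45 to 50 Mb, with 28 SW620-only and 7 SW480-only regions. Neighbouring bins at 20 and 25 Mb therefore pointed in opposite directions. In 30 to 35 Mb the numbers were close, with 14 SW620-only and 13 SW480-only regions.

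**Figure D4:**
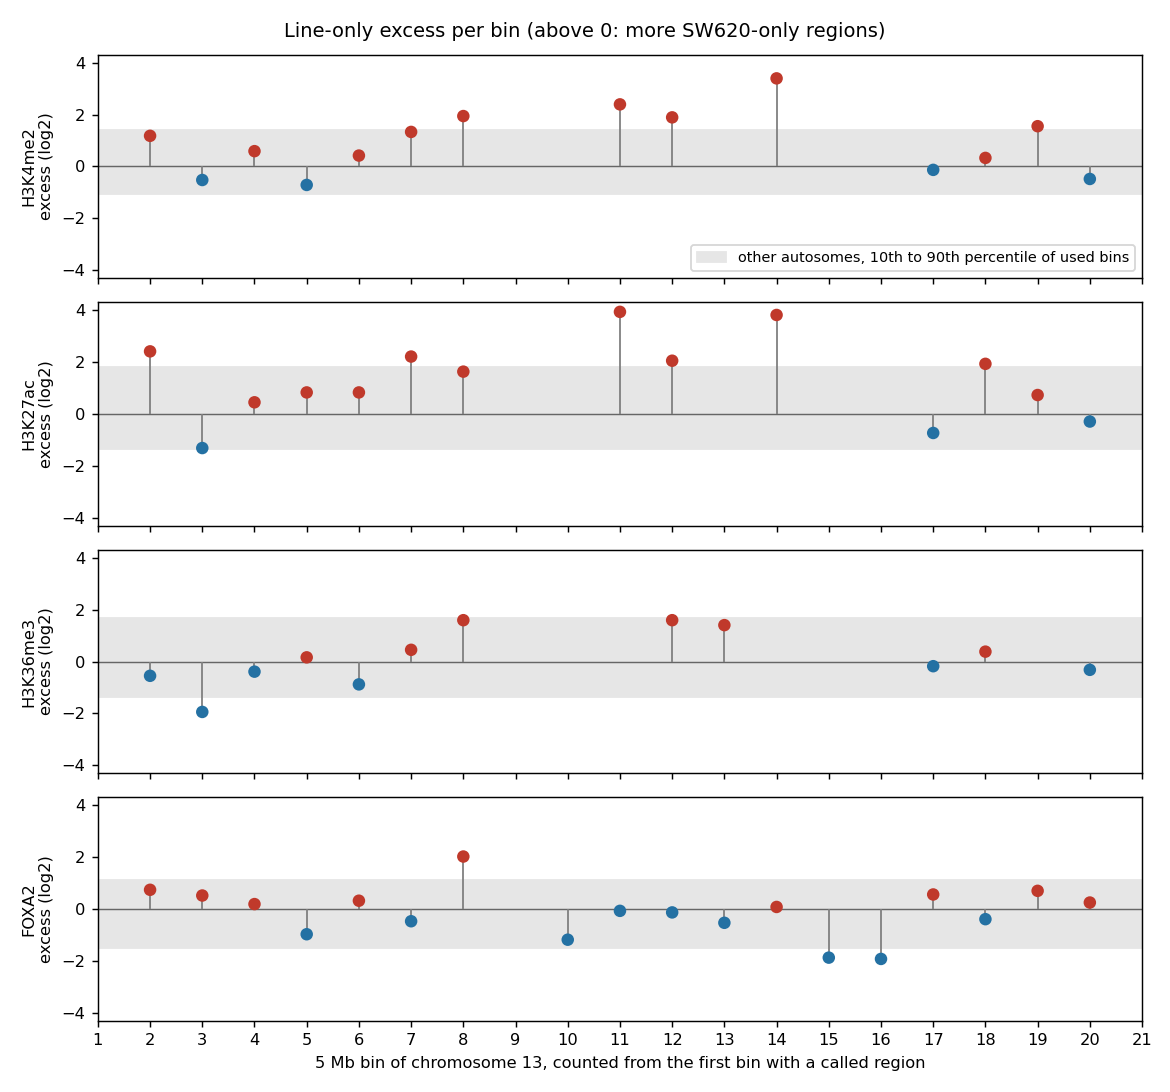
Points give the line-only excess (log2) per 5 Mb bin of chromosome 13 for H3K4me2, H3K27ac, H3K36me3 and FOXA2, in bins with at least 10 line-only regions of both lines together. Red points above 0 mean relatively more SW620-only regions than on the other autosomes and blue points below 0 more SW480-only ones, the grey band spans the 10th to the 90th percentile of the used bins of the other autosomes, and bins are numbered from 1 at 15 to 20 Mb to 21 at 115 to 120 Mb. H3K27ac lies above 0 in 11 of 14 bins and H3K36me3 in 6 of 12, and bin 3, 25 to 30 Mb, lies below 0 for H3K4me2, H3K27ac and H3K36me3.

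In 11 bins H3K4me2, H3K27ac and H3K36me3 could all be used. All 3 marks had an SW620 excess in 4 of them, 36.4%, against 25.2% of 401 bins on the other autosomes, and all 3 had an SW480 excess in 3, 27.3%, against 26.9%. The 3 bins with the strongest joint SW620 excess were 50 to 55, 70 to 75 and 45 to 50 Mb. In 50 to 55 Mb H3K4me2 had 21 SW620-only and 3 SW480-only regions, H3K27ac 16 SW620-only and 6 SW480-only, and H3K36me3 58 SW620-only and 27 SW480-only. The excess was 1.94 for H3K4me2, 1.63 for H3K27ac and 1.59 for H3K36me3. In 70 to 75 Mb H3K4me2 had 15 SW620-only and 2 SW480-only regions, H3K27ac 12 SW620-only and 3 SW480-only, and H3K36me3 20 SW620-only and 9 SW480-only. Bins were named for their joint excess, so the shared lean of the 3 marks followed from that choice. In 45 to 50 Mb the lean was strong for H3K27ac, at 2.21, and for H3K4me2, at 1.33, but small for H3K36me3, at 0.45, with 58 SW620-only and 61 SW480-only regions.

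The 3 bins with the strongest joint SW480 excess were 25 to 30, 110 to 115 and 95 to 100 Mb. In 25 to 30 Mb H3K36me3 had 11 SW620-only and 65 SW480-only regions, an excess of -1.94, and ranked 18th lowest of the used autosomal bins for that mark. H3K27ac had an excess of -1.31 there and H3K4me2, with 23 line-only regions in each line, -0.52. H3K4me3 had no SW620-only region in this bin, with all 31 SW620 regions shared, and 14 SW480-only regions of 45, the 2nd lowest excess of its used bins. This bin held the clearest SW480 surplus on the chromosome. In 110 to 115 Mb the excess was -0.48 for H3K4me2, -0.29 for H3K27ac and -0.32 for H3K36me3, and in 95 to 100 Mb it was -0.13, -0.73 and -0.18 in the same order of marks.

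Over the bins used for both marks, the excess of H3K4me2 and that of H3K27ac had the same sign in 13 of 14 bins (Pearson's r = 0.83, Spearman's rho = 0.73). H3K27ac and H3K36me3 had the same sign in 8 of 11 bins (r = 0.64, rho = 0.47). These are descriptions, since H3K4me2 and H3K27ac share many sites and the marks share the cells of each line. FOXA2 did not follow H3K4me2, H3K27ac or H3K36me3 along the chromosome. It had the same sign as H3K4me2 in 7 of 14 bins (r = 0.21, rho = 0.10) and as H3K27ac in 6 of 14 bins (r = -0.18, rho = -0.32). With H3K36me3 it shared the sign in 1 of 12 (r = -0.05, rho = -0.31).

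In each of the 8 bins between 55 and 95 Mb SW620 had more histone regions than SW480. This stretch was chosen after its values were seen, and the same count was not made on the other autosomes. The marks did not all lean alike: in 75 to 80 Mb H3K36me3 had 94 SW620 and 80 SW480 regions, and H3K27ac 14 and 15. The gap was smallest in 90 to 95 Mb, with 15 SW620 and 14 SW480 histone regions. In 55 to 60 Mb there were 10 SW620 and 3 SW480 histone regions. In 65 to 70 Mb SW620 had 37 regions, all SW620-only, and SW480 had 6, all SW480-only. Acetylation in that bin was called at 11 sites in SW620 and at none in SW480, and H3K4me2 at 14 sites in SW620 and 1 in SW480. Of the 11 acetylated sites 10 lay outside H3K4me3, and no H3K36me3 region was called in either line. In 80 to 85 Mb SW620 had 58 regions and SW480 20, with 10 SW620-only H3K27ac regions and no SW480-only one, and 14 SW620-only H3K4me2 regions and no SW480-only one. The longest stretch without histone calls in SW480 ran from 80918489 to 88329792, or 7.41 Mb. Within it SW620 had 6 H3K4me2, 2 H3K4me3, 3 H3K27ac and 0 H3K36me3 regions and 8 FOXA2 peaks, and SW480 had 13 FOXA2 peaks. In SW620 the longest such stretch was 4.15 Mb, from 67709665 to 71864321.

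Line-only regions also came in clusters. H3K4me2, H3K4me3 and H3K27ac regions of 1 line were joined where gaps were at most 10 kb, and a cluster was called line-only if it held at least 2 of the 3 marks and no region of these marks of the other line lay within 5 kb. SW620 had 70 such clusters among 615, or 11.4%, covering 0.281 Mb, against 7.67% of its clusters on the other autosomes. This was the highest share of the 22 autosomes, with chromosome 3 next at 10.9%. SW480 had 29 among 542, or 5.35%, covering 0.114 Mb, against 6.79% elsewhere, the 20th highest share. The part of the sparser calls on chromosome 13 in these shares was not tested. SW620-only clusters were most frequent in 45 to 50 Mb, with 9, and in 40 to 45 and 65 to 70 Mb, with 7 each. SW480-only clusters were most frequent in 95 to 100 Mb, with 7, and in 25 to 30 and 110 to 115 Mb, with 5 each.

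The widest SW620-only cluster ran from 52187151 to 52220080, or 32.9 kb. It held 5 H3K4me2, 5 H3K27ac and 1 H3K36me3 region and 2 FOXA2 peaks, all from SW620, and SW480 had nothing called there. The 2 widest H3K27ac regions of SW620 without SW480 acetylation within 5 kb both lay in it, from 52206007 to 52213887 (7.88 kb) and from 52191410 to 52198026 (6.62 kb), each with a FOXA2 peak of SW620. The cluster had no H3K4me3, the promoter mark. The next clusters ran from 72180887 to 72201902, with 4 H3K27ac and 2 H3K4me2 regions, and from 67635432 to 67651503 (16.1 kb), with 4 H3K27ac and 2 H3K4me2 regions and 2 FOXA2 peaks. A further cluster from 67609695 to 67623981 (14.3 kb) lay just before it, so that this pair accounts for 6 of the 11 acetylated sites of the 65 to 70 Mb bin. The cluster from 47207808 to 47222867 (15.1 kb) differed in that it held an H3K4me3 region beside 4 H3K4me2 and 3 H3K27ac regions and 1 FOXA2 peak. It included the 3rd widest such acetylated region, from 47213140 to 47219158 (6.02 kb). The other named H3K27ac regions of SW620 ran from 101111232 to 101116038 (4.81 kb) and from 79783774 to 79788202 (4.43 kb), the last with a FOXA2 peak and no H3K4me2.

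The widest SW480-only cluster ran from 27607821 to 27631177, or 23.4 kb, with 3 H3K4me2 and 3 H3K27ac regions in SW480 and nothing called in SW620. A second one in the same bin ran from 27022162 to 27035447 (13.3 kb). The other named ones lay further out, from 99403187 to 99414578 (11.4 kb), from 99647860 to 99652872 (5.01 kb) and from 98822247 to 98827226 (4.98 kb). Several SW480-only features thus fell close together in the last bin before 100 Mb. The widest H3K27ac region of SW480 without SW620 acetylation within 5 kb ran from 99623672 to 99632268 (8.60 kb) and overlapped an H3K4me3 and 2 H3K36me3 regions of SW480, and an H3K4me2 region of each line. The widest SW480-only H3K36me3 regions ran from 99560795 to 99580641 (19.8 kb) and from 99599005 to 99608707 (9.70 kb), just before it. The third, from 26913899 to 26921925 (8.03 kb), lay near the acetylated region from 26984204 to 26989034 (4.83 kb). The acetylated regions from 42184182 to 42191432 (7.25 kb) and from 42134674 to 42139536 (4.86 kb) had H3K4me2 in both lines, and the first of them held 2 FOXA2 peaks of SW620.

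Line-only H3K36me3 regions had nearly the same median width in both lines, 1251 bp in SW620 against 1253 bp in SW480. The widest of SW620 ran from 107141760 to 107148564 (6.80 kb), from 51955057 to 51959655 (4.60 kb) and from 24815785 to 24820321 (4.54 kb), and none held another mark. The widest H3K4me3 regions were common to both lines. One ran from 80911744 to 80918642 in SW620 (6.90 kb) and from 80912166 to 80918196 in SW480 (6.03 kb), at the edge of the long SW480 stretch without histone calls, and it was acetylated in both lines. Another ran from 22243276 to 22249780 in SW620 (6.50 kb) and from 22243039 to 22250351 in SW480 (7.31 kb). The third of SW620, from 111363786 to 111369896 (6.11 kb), also carried H3K4me3, H3K4me2 and H3K27ac in SW480, and that of SW480, from 100630884 to 100637642 (6.76 kb), overlapped 2 H3K4me3 regions in SW620.

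FOXA2 peaks lay on marked chromatin often in SW620 and seldom in SW480, on chromosome 13 as on the other autosomes. SW620 peaks are also wider, and the part of width in the difference was not tested. Of 405 SW620 peaks, 201 lay on SW620 H3K4me2, 49.6% (44.8 to 54.5), 127 on H3K27ac, 31.4%, 51 on H3K4me3, 12.6% (9.71 to 16.2), and 9 on H3K36me3, 2.22% (1.17 to 4.17). Of 149 SW480 peaks, 4 lay on SW480 H3K4me2, 2.68% (1.05 to 6.70), 6 on H3K27ac, 4.03% (1.86 to 8.51), and 0 on H3K36me3, which allows up to 2.51%. On the other autosomes 51.8% of SW620 peaks and 5.86% of SW480 peaks lay on H3K4me2 of their own line, and 34.1% of SW620 peaks and 4.57% of SW480 peaks on H3K27ac. The SW620-only peaks were a little less often on marks than elsewhere, with 49.4% on SW620 H3K4me2 against 52.1% and 31.2% on SW620 H3K27ac against 34.3%. The gap was wider for the marks of SW480 at the same places: 22.7% of the 401 SW620-only peaks lay on SW480 H3K4me2, against 30.4% elsewhere, and 17.7% on SW480 H3K27ac, against 24.5%.

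SW620-only H3K27ac and H3K4me2 regions held an SW620 FOXA2 peak more often than shared ones did. These classes also differed in H3K4me3 of SW620, which lay on 14.1% of SW620-only and 75.6% of shared H3K27ac regions. For H3K4me2 regions of SW620 it was 8.48% and 61.2%. The part of H3K4me3 in the FOXA2 difference was not tested. SW620 peaks occurred in 61 of 198 SW620-only H3K27ac regions, 30.8% (24.8 to 37.6), in 56 of 312 shared ones, 17.9% (14.1 to 22.6), and in 13 of 126 SW480-only ones, 10.3%. The other autosomes gave 26.7%, 14.3% and 7.01% for the same classes, in the same order. For H3K4me2 the shares were 32.4% of SW620-only regions, against 25.3% elsewhere, 16.5% of shared ones in the SW620 list, against 14.0%, and 4.58% of SW480-only ones, against 4.15%. On chromosome 13, 60 SW620-only FOXA2 peaks lay on SW620-only H3K27ac, and 2 SW480-only peaks lay on SW480-only H3K27ac. The first 3 of the 60 in list order lay at 50819201 to 50819519, 106631862 to 106632180 and 46671145 to 46671463, each with H3K4me2 of SW620. The 2 in SW480 lay at 72432977 to 72433103 and 98763158 to 98763284, both without H3K4me2. By bin, FOXA2 stood out in 50 to 55 Mb, with 40 SW620 and 3 SW480 peaks and the 10th highest excess of the used autosomal bins. That bin also led in joint excess of the 3 histone marks. The numbers were turned in 85 to 90 Mb, with 8 SW620 and 12 SW480 peaks, and in 90 to 95 Mb, with 5 SW620 and 8 SW480 peaks.

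Only 4 FOXA2 positions were called in both lines. They lay at 28540166 to 28540484 in SW620 (28540202 to 28540328 in SW480), at 42222514 to 42222832 in SW620 (42222521 to 42222647 in SW480), at 106748990 to 106749308 in SW620 (106749098 to 106749224 in SW480), and at 114211995 to 114212313 in SW620 (114212169 to 114212295 in SW480). The peak centres of the lines were 60, 89, 12 and 78 bp apart. The first lay on H3K4me2 and H3K27ac in both lines, with H3K4me3 in SW480, and the second on H3K4me2 in SW620 and on H3K27ac in both lines. The third lay on SW620 H3K4me2 alone and the fourth on no mark.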

How the data were processed

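Per the file headers, the authors ran HOMER findPeaks on each library with the input of its line as control. The histone setting used a region size of 1000 bp and at least 4-fold over input, FOXA2 at least 2-fold, with a false discovery rate of 0.001. Every region thus passed a ratio to input. Per the submitters' processing notes, coordinates are hg19. The sources used here name no aligner and no HOMER version. The score column deposited by the authors held 1 in every row, so regions carry no signal and histone regions were ranked by width and FOXA2 peaks by list order. Region starts are printed as the deposited start plus 1 and ends as deposited. Widths are the deposited end less the deposited start, in bp.

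Overlaps came from Python 3.11.15 code using pandas 2.3.3 and numpy 2.4.6, tested on simulated data, and checked against bedtools 2.31.1, which gave equal line-only numbers in 10 of 10 lists. Intervals came from scipy 1.17.1 and figures from matplotlib 3.10.9. Intervals of ratios came from binomial intervals of the SW620 part of the regions of both lines, exact for ratios of list shares and Wilson for the excess. Per line, the regions named were the 5 widest H3K27ac regions with none of the other line within 5 kb, the 3 widest H3K4me3 and line-only H3K36me3 regions, the first 3 line-only FOXA2 peaks on line-only H3K27ac, and the 5 widest line-only clusters. The named bins were the 3 per direction with the largest joint excess and the 3 fullest and emptiest. Bins of the poor stretch and of single antibodies were chosen after their values were seen. The members, lists and rules were chosen with earlier results of these data known. Alternatives covered the overlap rule, list length, the unit of the share, and the place and minimum content of bins. The gene table is on GRCh38 and gave only gene numbers per chromosome. Input libraries were not analysed here.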

Additional observations from a re-analysis of the deposited data

How the results depend on the processing

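Of 89 values recomputed under an alternative, 69 moved by less than their interval or by less than 1.5 times and 20 moved further. A change of direction was counted only for an excess or ratio whose main interval lay wholly on 1 side of no difference, and 0 were found. Line-only shares and bin counts could not be counted so. Some values with wider intervals crossed: the H3K36me3 excess went from 0.11 to -0.11 with lists of equal length. By covered length the ratio of shares went from 1.03 to 0.949 for H3K4me3 and from 1.03 to 0.945 for H3K36me3. The H3K27ac excess lay between 0.76 and 1.21 under every alternative run and the H3K4me2 excess between 0.49 and 0.77. In the alternatives where all autosomes were recomputed (overlap rule and list length), both ranked 1st of 22. With overlap of at least 50% of both regions, the SW620-only shares were 48.4% for H3K4me2, 22.0% for H3K4me3, 48.0% for H3K27ac and 64.8% for H3K36me3. The SW480-only shares were 33.7% for H3K4me2, 28.5% for H3K4me3, 38.7% for H3K27ac and 68.9% for H3K36me3, and FOXA2 came to 100% in both lines. The FOXA2 value follows from the construction, since a peak of 127 bp cannot cover 50% of one of 319 bp. With regions within 1 kb also counted as shared, the H3K36me3 shares were 22.5% in SW620 and 30.3% in SW480. With lists of equal length, the SW620-only share of H3K4me2 was 34.4%, the SW480-only shares were 13.6% for H3K4me3 and 34.0% for H3K36me3, and the H3K36me3 excess was -0.11. By covered length the H3K36me3 ratio of shares was 0.945. The number of H3K4me3 bins with an SW620 excess was 6 of 8 with a minimum of 5 line-only regions, 4 of 6 with the 50% overlap and 1 of 4 with bins moved by 2.5 Mb. Apart from the FOXA2 shares, the cause of these moves was not tested. Leaving out each bin in turn was added after the data were seen.

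No paired analysis was possible because each group has 1 library. With 1 library per line and antibody, differences between lines cannot be told apart from differences between libraries. Region lists show whether a site passed a threshold, not how strong it was, and depth and tag share differed between the lines for some antibodies. Bins with few line-only regions carry large counting error, and an excess in a bin with none in SW480 rests on the 1 added to each number.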
